A study of Homo sapiens with 6 samples.

Results

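Serine synthesis, folate-linked one-carbon transfer and cysteine supply were followed through 10 genes: PHGDH, PSAT1, PSPH, SHMT1, SHMT2, MTHFD2, ALDH1L2, CBS, CTH and SLC7A11. They were taken by symbol from the 26364 genes of the deposited table, and all 10 passed a filter on low values (an average of 10 normalized counts or more over all libraries) that left 15354 genes. The set was chosen by its pathway with the difference between the groups already known, so its fold changes and calls are given as a description.

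The cells were Calu3, a line from a human adenocarcinoma of the lung with airway epithelial character, and their RNA was sequenced from a single end. In 3 libraries the cells had received a negative control siRNA, and in 3 an siRNA against BRD8, which encodes a bromodomain protein of the TIP60/NuA4 complex, an acetyltransferase of histones. Every library is labelled with 20 nmol of siRNA delivered with the lipid reagent RNAiMAX, and no other treatment is named. The question the groups address is how RNA levels change when BRD8 is targeted. A single control reagent and a single BRD8 reagent were used, so loss of BRD8 and other effects of that reagent cannot be told apart. Whether each library stands for its own culture is not labelled, so p-values measure only the spread between libraries, which may be technical, and the shared extraction protocol speaks of HBE cells where the sample labels name Calu3.

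Cells make serine from the glycolytic intermediate phosphoglycerate in a short chain of reactions that PHGDH, PSAT1 and PSPH catalyse in that order. The serine hydroxymethyltransferases SHMT1, in the cytosol, and SHMT2, in mitochondria, split serine into glycine and a carbon unit carried on folate, which MTHFD2 and ALDH1L2 oxidize further in mitochondria. Serine is also joined to homocysteine by CBS, and CTH releases cysteine from the product. Cells that do not make enough cysteine this way import its oxidized form, cystine, through SLC7A11, and use it for glutathione.

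BRD8 was lower in every library of the BRD8 siRNA group. It stood at 2751, 2928 and 3067 normalized counts in the control libraries and at 1312, 1084 and 1156 in the BRD8 siRNA libraries. The difference was -1.30 on the log2 scale (SE 0.0904, adjusted p = 1.13e-04, limma). Part of its exon sequence is shared with KIF20A on the other strand, and these libraries are unstranded.

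Depth was similar throughout, with 33640814 to 37896467 reads assigned to genes in each library. The lowest count of any of the 10 genes was 362 reads (CTH) and the highest 11198 reads (SLC7A11), against a floor of 3 reads that equals 2.84 to 3.24 normalized counts and covers counting error only. Control library 2 stood apart from the other controls on the second principal component, which held 20.6% of the variance. All 8 airway epithelial markers were detected, with a summed level of 351430 to 428820 normalized counts in control libraries and 472130 to 524750 in BRD8 siRNA libraries, and 4 of the 8 were called higher. Of the 5 basal cell markers 3 were called higher and 1 lower, while their sum stood at 3014 to 3319 and 3283 to 3307. Of the 4 ciliated cell markers 3 averaged 10 normalized counts or more. None was called, and the 4 summed to 5796 to 7436 and 5503 to 8624. Fibroblast markers summed to 183 to 202 and 159 to 173 with COL1A2 at 0, endothelial markers to 4.32 to 11.2 and 11.4 to 13.5, and leukocyte markers to 13.0 to 19.3 and 7.59 to 18.7. The part of these markers in the results was not tested. In bulk RNA, fewer cells of a type and less RNA per cell cannot be told apart.

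A gene is called where the adjusted p from limma, over all genes tested, was under 0.05. By that rule 4 of the 10 genes were called lower after BRD8 siRNA (SLC7A11, PHGDH, CBS and PSAT1) and none higher, and 6 were not called. Over all genes tested, 19.0% were called, 8.93% lower and 10.1% higher. In 5 of the 10 genes (the same 4 and MTHFD2) every BRD8 siRNA library lay below every control library, as did 17.9% of all genes tested, while 18.9% of all genes had every BRD8 siRNA library above. The mean was lower in the BRD8 siRNA group for all 10 genes, with a median log2 fold change of -0.30, beside -0.01 over all genes tested. Since the genes were chosen with this difference known, nothing is read from those shares.

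**Figure D1:**
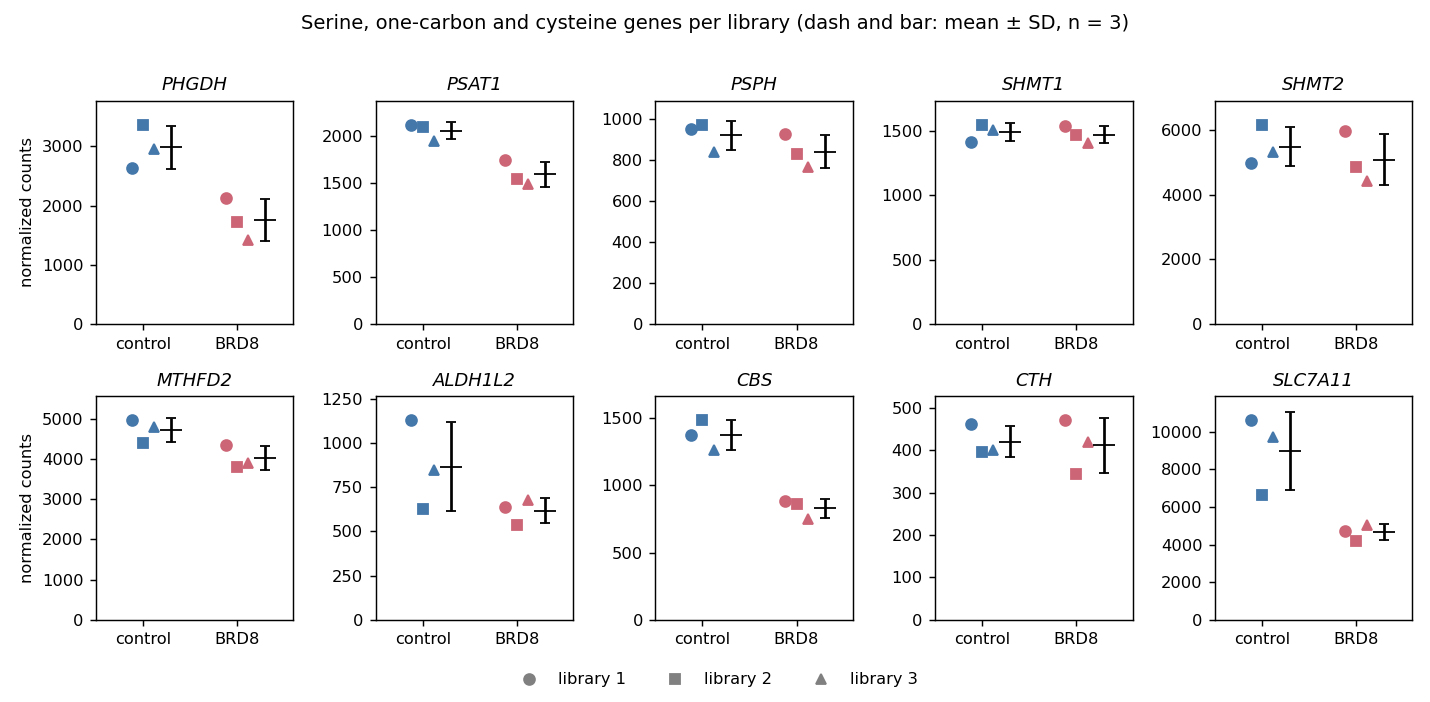
Normalized counts (vertical axis, from 0) of the 10 genes in each control and BRD8 siRNA library; the symbol gives the library number, and the dash with its bar the mean ± SD of 3 libraries. The groups lie apart for PHGDH, PSAT1, MTHFD2, CBS and SLC7A11 and overlap for PSPH, SHMT1, SHMT2, ALDH1L2 and CTH.

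In the serine synthesis chain the difference between the groups was largest at the first enzyme and smallest at the last. PHGDH, which oxidizes phosphoglycerate and commits it to serine, stood at 2638, 3362 and 2948 normalized counts in the control libraries and at 2130, 1722 and 1413 in the BRD8 siRNA libraries. Its groups were separated by 508 normalized counts, between control library 1 and BRD8 library 1. The means were 2983 ± 363 and 1755 ± 360 (SD, n = 3 each, as for every mean ± SD here), a 1.70-fold difference, or -0.78 on the log2 scale (SE 0.148, 95% interval -1.11 to -0.44). PSAT1, the aminotransferase that follows, stood at 2121, 2099 and 1953 in the controls and at 1744, 1546 and 1488 after BRD8 siRNA. Every control library was above every BRD8 siRNA library, by at least 209 normalized counts. Its means were 2058 ± 91.2 and 1593 ± 135, a 1.29-fold difference (log2 fold change -0.37, SE 0.0842). PSPH, the phosphatase that releases serine, gave 948, 971 and 836 in the controls and 924, 827 and 765 after BRD8 siRNA, so that the groups overlapped. Its log2 fold change of -0.13 had an interval from -0.36 to 0.09.

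The differences between these enzymes were also read within libraries, by pairs chosen after their values were seen and therefore with no test. On the log2 scale PHGDH exceeded PSPH by 1.48, 1.79 and 1.82 in the control libraries and by 1.20, 1.06 and 0.89 in the BRD8 siRNA libraries. The gap between the first and the last enzyme of the chain was thus smaller in each BRD8 siRNA library than in any control library, by 0.65 on average. PSAT1 minus PHGDH was -0.31, -0.68 and -0.59 in the controls and -0.29, -0.16 and 0.07 after BRD8 siRNA, so that the pair came closest in BRD8 library 3. The call of PSAT1 was lost on leaving out control library 1 (log2 fold change -0.35), BRD8 library 2 (-0.35) or BRD8 library 3 (-0.32), while PHGDH kept its call under all 16 alternatives. PSAT1 has 4 pseudogenes named after it in GENCODE v29, PSPH 1 and PHGDH none, and how reads shared with such copies were counted is not given in the sources used here.

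SHMT1 and SHMT2, which run the same reaction in cytosol and mitochondria, showed no called difference. SHMT2 stood at 4975, 6166 and 5336 normalized counts in the controls and at 5968, 4857 and 4441 after BRD8 siRNA. BRD8 library 1 lay above control libraries 1 and 3, and the log2 fold change was -0.12 with an interval from -0.39 to 0.16. SHMT1 stood at 1410, 1547 and 1504 in the controls and at 1534, 1471 and 1408 after BRD8 siRNA. Its log2 fold change of -0.02 (interval -0.19 to 0.16) had the smallest size of the 10 and changed sign under 3 of 16 alternatives. The excess of SHMT2 over SHMT1 on the log2 scale was 1.82, 1.99 and 1.83 in the controls and 1.96, 1.72 and 1.66 after BRD8 siRNA. These ranges overlapped, and their means differed by -0.10, or by -0.19 to -0.04 with 1 library left out. The exons of SHMT2 overlap an antisense gene over 8.83% of their length and SHMT1 has 1 named pseudogene, so both counts may hold reads of other genes.

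MTHFD2 and ALDH1L2, the enzymes among the 10 that oxidize the folate-bound carbon in mitochondria, were lower on average, but neither was called. MTHFD2, which oxidizes methylene-folate in mitochondria, stood at 4966, 4394 and 4798 normalized counts in the controls and at 4357, 3800 and 3900 after BRD8 siRNA. The groups did not overlap, with control library 2 only 37.1 normalized counts above BRD8 library 1. Its log2 fold change was -0.23 (SE 0.0823, interval -0.42 to -0.05), a 1.17-fold difference between 4719 ± 294 and 4019 ± 297. ALDH1L2, which turns formyl-folate into carbon dioxide and free folate, stood at 1127, 624 and 847 in the controls and at 636, 537 and 680 after BRD8 siRNA. Control library 2 lay below BRD8 libraries 1 and 3, and the control libraries had the widest relative spread of the 10 genes, with an SD of 29.1% of the mean. Its log2 fold change was -0.45 (SE 0.194, interval -0.89 to -0.01). Without control library 2 both were called lower, MTHFD2 at -0.28 and ALDH1L2 at -0.67. Calls over all 15354 genes tested then rose as well, from 2920 to 5229. The counts of MTHFD2 carry more doubt than most, since 27.2% of its exon length overlaps SLC4A5 on the opposite strand, and its paralog MTHFD2L and 7 pseudogenes share sequence with it. SLC4A5 stood at 355 ± 26.5 and 392 ± 8.33 normalized counts and MTHFD2L at 128 ± 8.58 and 122 ± 12.1, in control and BRD8 siRNA libraries respectively. MTHFD2P1, the sole pseudogene of these in the deposited table, stood at 1.65 ± 1.54 and 1.30 ± 0.517 in the same order.

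Of the transsulfuration enzymes, CBS was lower in every BRD8 siRNA library while CTH overlapped between the groups. CBS, which joins serine to homocysteine, stood at 1371, 1483 and 1264 normalized counts in the controls and at 882, 859 and 750 after BRD8 siRNA. The lowest control lay 383 normalized counts above the highest BRD8 siRNA library. The means were 1373 ± 110 and 830 ± 70.3, a 1.65-fold difference (log2 fold change -0.73, SE 0.0958, interval -0.94 to -0.51). CTH, the lyase that frees cysteine, stood at 463, 397 and 401 in the controls and at 471, 343 and 421 after BRD8 siRNA. BRD8 library 1 was the highest of the 6 for CTH, and the log2 fold change of -0.04 (interval -0.33 to 0.26) changed sign under 2 of 16 alternatives. Within libraries CBS exceeded CTH by 1.57, 1.90 and 1.65 on the log2 scale in the controls and by 0.90, 1.32 and 0.83 after BRD8 siRNA. The ranges did not overlap, and the means differed by -0.69, a pair chosen after its values were seen. GENCODE v29, on another build than the data, also annotates CBSL, a copy of CBS on chromosome 21. CBSL is not among the genes of the deposited table under that name. Whether any such copy was counted is not given in the sources used here.

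SLC7A11, the cystine-glutamate exchanger, had the largest difference of the 10 with all libraries and no correction. It stood at 10613, 6667 and 9726 normalized counts in the controls and at 4725, 4196 and 5039 after BRD8 siRNA. Control library 2 was far below the other controls, yet still 1627 normalized counts above the highest BRD8 siRNA library. The means were 9002 ± 2070 and 4654 ± 426, a 1.93-fold difference (log2 fold change -0.93, SE 0.160, interval -1.29 to -0.56). The call held under all 16 alternatives, among which the log2 fold change ran from -1.13 without control library 2 to -0.78 with the trend on transcript length and GC content removed. With that trend removed PHGDH (-0.84) and CBS (-0.83) were lower than SLC7A11, and without control library 1 PHGDH was (-0.86 against -0.80), so its place among these 3 was not resolved. SLC7A11-AS1, a transcript from the opposite strand that overlaps 8.97% of the exon length of SLC7A11, was scarce at 41.7, 15.1 and 41.7 in the controls and 9.36, 9.48 and 16.4 after BRD8 siRNA. Its highest BRD8 siRNA library lay above its lowest control, library 2, and it was not called by limma with all libraries. It was called lower without control library 2 (log2 fold change -1.79), with quantile normalization (-1.42), with the length and GC trend removed (-1.26), with edgeR (-1.47), with DESeq2 (-1.48) and in the authors' deposited table (-1.48). Without strand, its reads in the shared stretch and those of SLC7A11 cannot be told apart.

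**Figure D2:**
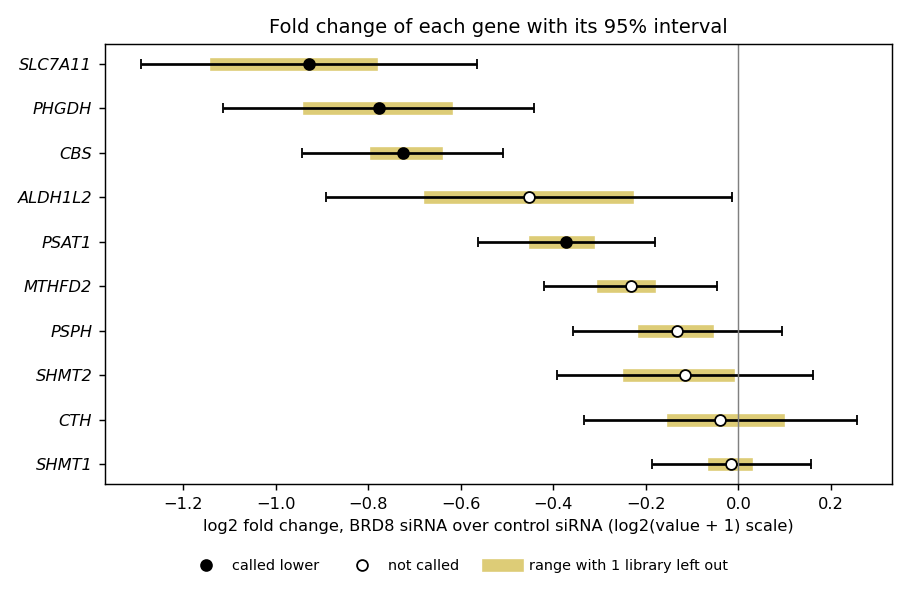
Log2 fold change (horizontal axis, BRD8 siRNA over control siRNA on the log2(value + 1) scale) of each gene with its 95% interval from limma as a black line; filled points were called lower, and the yellow band spans the values with 1 library left out. SLC7A11, PHGDH and CBS lie below -0.50 throughout their bands, and the bands of SHMT1 and CTH cross 0.

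The authors' deposited table, computed by them with another model, gives the same order for the 4 called genes. Its log2 fold changes are -0.95 for SLC7A11 (standard error 0.160), -0.77 for PHGDH (0.154), -0.73 for CBS (0.113) and -0.37 for PSAT1 (0.0998). With edgeR and with DESeq2 on the recovered reads, and with the adjusted p of the authors' deposited table, the 4 genes called were again these. DESeq2 gave the authors' log2 fold changes for PHGDH (-0.77) and PSAT1 (-0.37), so it is no separate check on their values. No alternative called any of the 10 genes higher.

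Control library 2 moved with the spread of several of these genes. Over 14859 genes with a known transcript length, its level relative to the mean of control libraries 1 and 3 decreased with length, with a Spearman rho of -0.52, and rose with GC content, with a rho of 0.46. Both describe genes of the same 3 libraries. From the shortest to the longest decile of genes, at median lengths of 1018 and 9353 bases, the median log2 ratio went from 0.26 to -0.35. SLC7A11 and ALDH1L2 are the longest of the 10 genes, with transcripts of 9645 and 7547 bases that are longer than 95.4% and 90.4% of genes tested. In control library 2 they stood at 0.656 and 0.632 times the mean of the other controls, lower than most genes of their length. PHGDH and SHMT2, of 3180 and 3416 bases, stood at 1.20 times that mean, higher than most genes of theirs. Without control library 2 the log2 fold changes of SLC7A11 and ALDH1L2 were larger in size, at -1.13 and -0.67, and those of PHGDH and CBS smaller, at -0.69 and -0.67. With the length and GC trend removed, 6 of the 10 genes were called, MTHFD2 at -0.18 and ALDH1L2 at -0.35 being added to the 4. Calls over all 15354 genes tested rose from 2920 to 4996 with that removal.

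**Figure D3:**
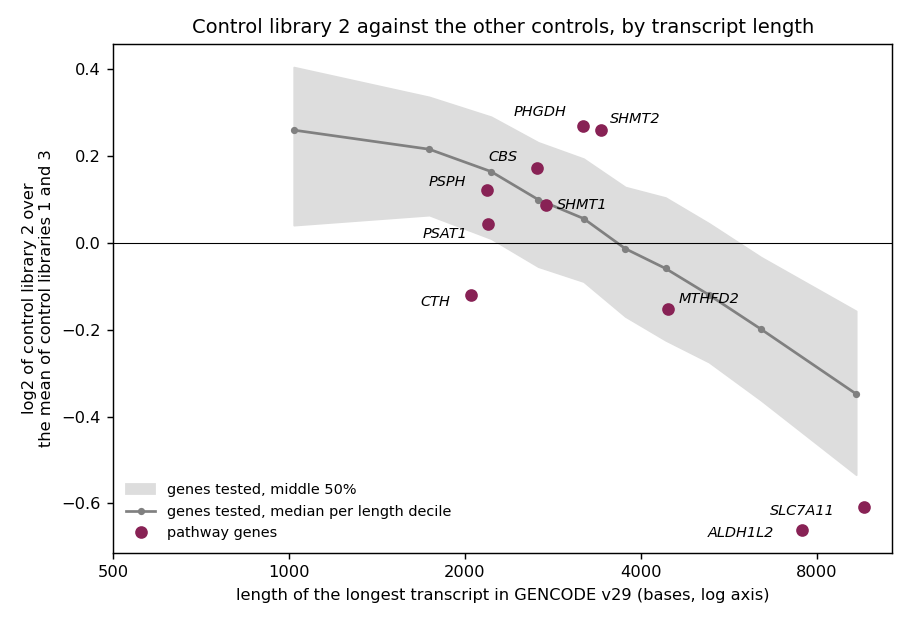
Log2 ratio of control library 2 to the mean of control libraries 1 and 3 (vertical axis) against the length of the longest transcript in bases (log axis), as the median and middle 50% of genes tested in each length decile, with the 10 pathway genes as points. The median declines from 0.26 to -0.35, and SLC7A11 and ALDH1L2 lie below the band at its long end while PHGDH and SHMT2 lie above it.

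The BRD8 siRNA libraries also differed among themselves in these genes. In 8 of the 10 genes BRD8 library 1 was the highest of that group, as it was in 34.4% of all genes tested. The exceptions were ALDH1L2 and SLC7A11, which were highest in BRD8 library 3. The lowest of the group was BRD8 library 3 in 6 genes (PHGDH, PSAT1, PSPH, SHMT1, SHMT2 and CBS) and BRD8 library 2 in the other 4. How often each library was the lowest over all genes was not counted, so nothing is read from those numbers. Without BRD8 library 1 the log2 fold change of PHGDH was -0.93 and it stayed called.

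To compare levels between genes, normalized counts were divided by the length of each gene's principal transcript in kilobases. In the control libraries SHMT2 was the most abundant, at 2165 ± 241 normalized counts per kilobase. PHGDH at 1154 ± 141 and MTHFD2 at 1059 ± 66.0 followed with overlapping ranges. PSAT1 at 940 ± 41.7 and SLC7A11 at 933 ± 215 came next, but the range of SLC7A11, 691 to 1100, overlapped those of PSAT1, MTHFD2 and PHGDH, so its place among them was not resolved. After them, each apart from the next, came SHMT1 at 604 ± 28.4, CBS at 527 ± 42.1, PSPH at 422 ± 33.0, CTH at 233 ± 20.2 and ALDH1L2 at 115 ± 33.4. In the BRD8 siRNA libraries PHGDH, at 679 ± 139 per kilobase, stood behind SHMT2, MTHFD2 and PSAT1, though its range of 547 to 824 spanned that of PSAT1. SLC7A11, at 482 ± 44.2, stood behind SHMT1, and their ranges did not overlap. This order depends on the length used. With the union of all annotated exons, 9217 bases for PHGDH against 2585 for its principal transcript, PHGDH had rank 6 of the 10 in the controls. PSPH, at 332 per kilobase of that union, then stood above SHMT1 at 204 and CBS at 202. In the BRD8 siRNA libraries SLC7A11, at 482, then stood above SHMT1 at 202.

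The promoters of PHGDH and PSAT1, the 2 serine synthesis genes called lower, are shown because consecutive enzymes of 1 chain differed together. The sequences are the 250 bases before the RefSeq start of each gene on GRCh38.p14, 5′ to 3′ on the gene's strand, with CG dinucleotides in capitals. PHGDH lies at chr1:119711684-119711933 on the plus strand and PSAT1 at chr9:78296875-78297124 on the plus strand.
PHGDH: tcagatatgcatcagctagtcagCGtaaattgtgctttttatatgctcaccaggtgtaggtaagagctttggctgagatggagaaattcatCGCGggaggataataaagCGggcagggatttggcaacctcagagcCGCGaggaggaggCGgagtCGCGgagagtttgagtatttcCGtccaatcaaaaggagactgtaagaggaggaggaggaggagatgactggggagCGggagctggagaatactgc
PSAT1: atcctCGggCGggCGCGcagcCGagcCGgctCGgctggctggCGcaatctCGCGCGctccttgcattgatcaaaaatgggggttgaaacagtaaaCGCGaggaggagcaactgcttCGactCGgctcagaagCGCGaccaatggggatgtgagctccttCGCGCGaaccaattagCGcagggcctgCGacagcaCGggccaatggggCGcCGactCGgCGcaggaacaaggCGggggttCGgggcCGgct
The window of PHGDH held 11 CG dinucleotides and 51.2% GC, and that of PSAT1 30 and 65.6%. The median over 35116 RefSeq promoters was 11 CG, and 49.7% and 87.6% of promoters had fewer than PHGDH and PSAT1 respectively.

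RefSeq windows of 300 bases, 250 before and 50 after the start, were found for 6 of the 10 genes (PHGDH, PSAT1, SHMT1, MTHFD2, CTH and, with 3 windows, CBS), and not for PSPH, SHMT2, ALDH1L2 and SLC7A11. They were searched on both strands for the C/EBP-ATF response element as TGATGNAA, the antioxidant response element as TGACNNNGC and the E-box as CACGTG. Of the 35116 promoters 3.62%, 13.3% and 7.26% hold these letters, and of 27305 genes 4.46%, 16.1% and 8.77% hold them in any window. Of these letters only TGACNNNGC was found, once in MTHFD2 and once in the third window of CBS, each time on the strand opposite to the gene. These windows are shown on the gene's strand with the match in capitals, at chr2:74198611-74198638 on the plus strand for MTHFD2 and chr21:43076443-43076470 on the minus strand for CBS.
MTHFD2: ttccctcccgGCGCAGTCAccggcgcgg
CBS: ccggctctggGCGCGGTCAcgcggggcg
The match begins 6 bases after the start in MTHFD2 and 83 bases before it in CBS. A match describes letters and shows no binding, and its part in the results was not tested.

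The neighbouring genes of these pathways were counted from 7 lists. Each gene taken once, 87 of their 99 genes in the table passed the low-value filter, of which 13 (14.9%) were called higher, 10 (11.5%) lower and 64 not called. Over all genes tested, 10.1% were called higher and 8.93% lower. The median log2 fold change of these 87 genes was -0.01, as over all genes tested.

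Folate and one-carbon genes outside the 10, transporters and a receptor among them, were called in both directions. Of 15 tested, 3 were higher and 4 lower, with a median of -0.26. FOLR1, a folate receptor at the cell surface, rose from a low 38.1 ± 8.09 normalized counts in the controls to 116 ± 7.77 (log2 fold change 1.61, SE 0.187, adjusted p = 9.89e-04, limma). FPGS, which traps folate in cells by adding glutamates, rose by 0.45 on the log2 scale (adjusted p = 0.0128, limma), and GGH, which removes them, fell by 0.49, from 1139 ± 55.5 to 809 ± 39.7 (adjusted p = 0.00420, limma). The call of FPGS was lost without control library 3 (0.46) or BRD8 library 2 (0.43). Also lower, and named after their values were seen, were the cytosolic folate enzyme MTHFD1 (-0.30) and the thymidylate synthase TYMS (-0.68). TYMS kept its call with each library left out, but 39.1% of its exon length overlaps ENOSF1 on the other strand, which was itself called lower (-0.24), and reads of the 2 genes cannot be told apart there. MTHFD1 lost its call without control library 3 (-0.28) and on leaving out library 2 (-0.27) or 3 (-0.30) of the BRD8 group.

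Among 10 genes of glycine cleavage and serine or glycine use, GLDC alone was called. This decarboxylase of the glycine cleavage system fell from 457 ± 20.8 normalized counts in the controls to 361 ± 32.3 (log2 fold change -0.34, adjusted p = 0.0415, limma). Its call was lost without control library 1 (-0.35) or 3 (-0.31), without BRD8 library 2 (-0.31) or 3 (-0.30), and with no low-value filter. Of 9 serine and glycine transport genes, 2 were called, both higher and both of the sideroflexin family of mitochondrial carriers. SFXN1, a mitochondrial serine carrier, rose from 2448 ± 31.2 to 3135 ± 126 (0.36, adjusted p = 0.00801, limma), and SFXN3 from 2015 ± 140 to 2561 ± 74.3 (0.35, adjusted p = 0.0152, limma). The call of SFXN1 was lost without control library 3 (0.35), and that of SFXN3 without control library 1 (0.29) or 3 (0.35) or BRD8 library 1 (0.33) or 3 (0.34).

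Genes around homocysteine and glutathione were mostly not called. In the methionine cycle and sulfur metabolism 1 of 12 was higher and 1 lower. AHCY, which makes homocysteine, fell from 10989 ± 1183 normalized counts in the controls to 8209 ± 440 (log2 fold change -0.42, adjusted p = 0.0145, limma), and TST, a mitochondrial sulfurtransferase, rose from 2027 ± 381 to 3080 ± 392 (0.61, adjusted p = 0.0167, limma). The call of AHCY was lost without control library 3 (-0.42) or BRD8 library 3 (-0.37), and that of TST without control library 1 (0.55) or 3 (0.52) or BRD8 library 2 (0.51) or 3 (0.63). Of 13 cysteine and glutathione genes, 1 was higher and 1 lower. GGT1, which breaks down glutathione outside the cell and has close paralogs that could share its reads, rose from 1561 ± 171 to 2918 ± 175 (0.91, adjusted p = 6.19e-04, limma). SLC1A1, a transporter of glutamate and cysteine, fell from 5428 ± 310 to 4063 ± 153 (-0.42, adjusted p = 0.00567, limma). SLC3A2, the heavy chain that carries SLC7A11 to the membrane, was not called at 7121 ± 696 and 6641 ± 370, nor were the glutathione synthesis genes GCLC (-0.11), GCLM (0.09) and GSS (0.08). With the length and GC trend removed SLC3A2 was called lower, at -0.21.

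The 10 genes include known targets of the amino acid response, in which kinases that sense stress raise the translation of the transcription factor ATF4. ATF4 RNA stood at 11458 ± 1560 and 10899 ± 788 normalized counts and was not called (log2 fold change -0.07), nor were its targets ASNS (-0.20), TRIB3 (-0.11), CHAC1 (-0.22) and DDIT3 (0.28). With the length and GC trend removed, ATF4 (-0.18), ASNS (-0.25) and TRIB3 (-0.22) were called lower, and without control library 2 DDIT3 was called higher (0.41). Of 20 genes of this response, 3 were higher and 2 lower, with a median of -0.07. EIF2AK4, the kinase that senses uncharged tRNA, fell by 0.54 (adjusted p = 0.00538, limma) and the secreted glycoprotein STC2 by 0.46 (adjusted p = 0.00735, limma). EIF2AK3, the kinase of the unfolded protein response, rose by 0.51 (adjusted p = 0.00971, limma) and the transcription factor CEBPB by 0.50 (adjusted p = 0.0128, limma). NUPR1, named after its values were seen, rose by 0.88 (adjusted p = 0.0456, limma) from a low 42.6 ± 11.3 to 79.2 ± 22.6, and lost its call without any library but control library 2 (0.66 to 0.99), with no low-value filter and with quantile normalization (0.79). Transcripts from the opposite strand overlap 14.4% of the exon length of EIF2AK3 and 11.8% of that of CEBPB. MARS, on the opposite strand, overlaps 27.2% of that of DDIT3, and AC079781.5, on the same strand, 44.6% of that of ASNS. The call of CEBPB was lost without control library 3 (0.42) or BRD8 library 2 (0.41).

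SLC7A11 is also a known target of NRF2, the factor that answers oxidants. Of 12 NRF2 factors and targets, 3 were higher and 1 lower, with a median of 0.12. NFE2L2, which encodes NRF2, stood at 5796 ± 145 and 5961 ± 127 normalized counts and was not called. On the same strand, AC019080.1 overlaps 17.6% of the exon length of NFE2L2 and AC009119.2 13.9% of that of OSGIN1. The NADPH-making malic enzyme ME1 fell by 0.67 (adjusted p = 0.00525, limma), while OSGIN1 rose by 0.79 (adjusted p = 0.00543, limma) and the heme oxygenase HMOX1 by 0.71, from 87.4 ± 2.71 to 143 ± 12.2 (adjusted p = 0.00603, limma).

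**Figure D4:**
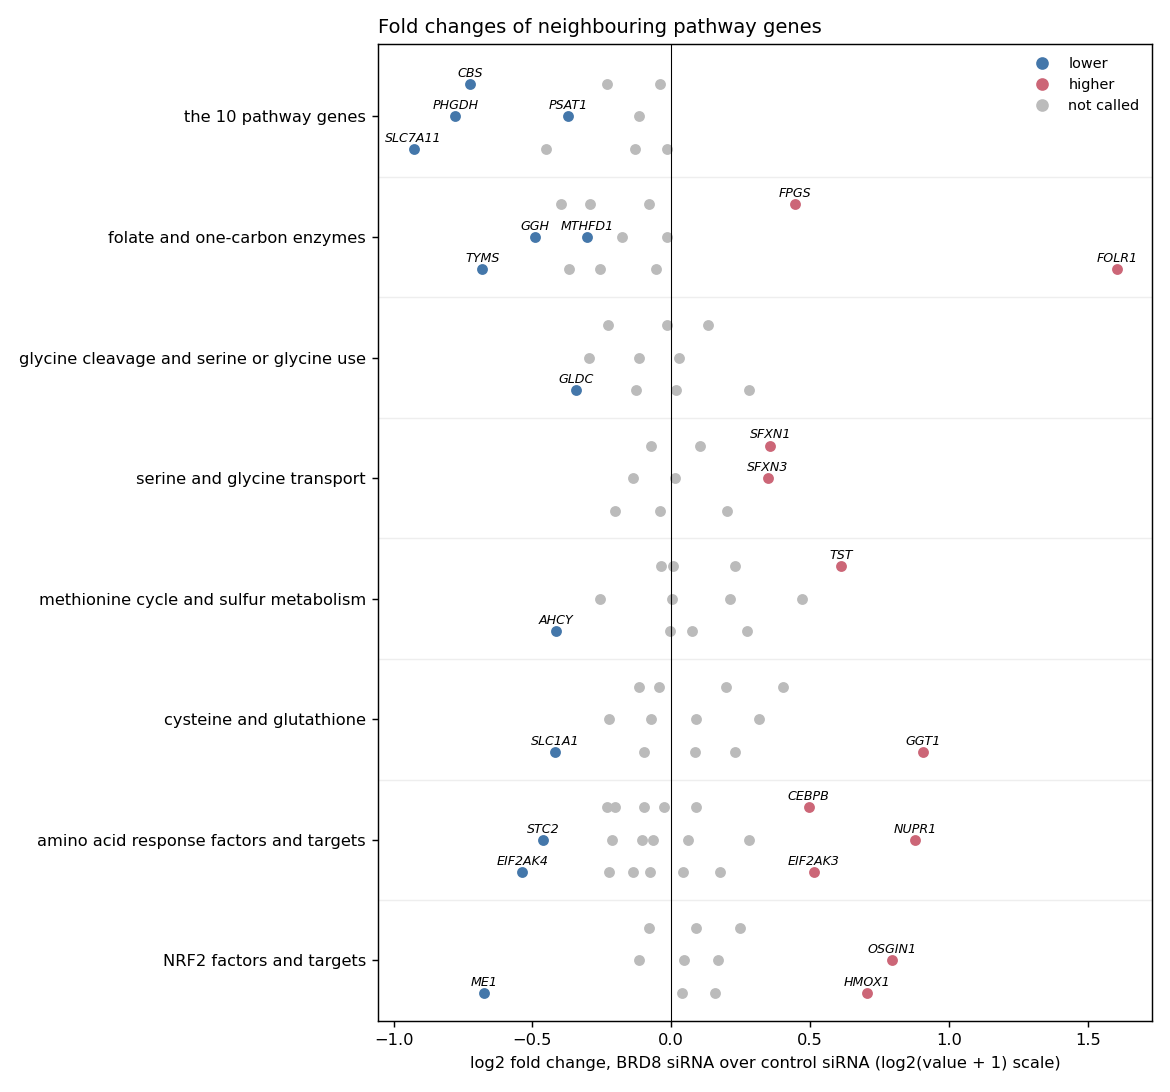
Log2 fold change (horizontal axis, BRD8 siRNA over control siRNA on the log2(value + 1) scale) of the 10 genes and of the 7 neighbouring lists, 1 point per gene reported here with vertical offsets that only separate points; named points were called lower (blue) or higher (red). The 10 genes lie below 0 and the other lists on both sides of it, with FOLR1 farthest to the right at 1.61.

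The patterns of PHGDH and SLC7A11 over the libraries differed in where control library 2 lay. Among 13080 genes averaging 50 normalized counts or more, those closest to PHGDH by Pearson's r of log2 values over the 6 libraries were DNAJC7 (0.998), GNL1 (0.994) and CHST10 (0.994), and 203 genes exceeded 0.95. Closest to SLC7A11 were MAPK6, RPS6KA3 and MBNL1 (each 0.999), and 748 genes exceeded 0.95. The points share the 2 groups and control library 2, so these values only describe. Control library 2 was 1.06, 1.06 and 1.14 times the mean of the other controls for DNAJC7, GNL1 and CHST10, and 1.20 times for PHGDH. For MAPK6, RPS6KA3 and MBNL1 it was 0.742, 0.735 and 0.743 times that mean, and for SLC7A11 0.656 times.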

How the data were processed

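Single-end RNA-seq libraries of 3 control and 3 BRD8 siRNA samples of Calu3 were analysed, grouped by their labels. Per the labels' protocols the kit was TruSeq RNA v2, an unstranded preparation. STAR 2.6, Subread with featureCounts 1.6.3, DESeq2 1.22.1 and the build hg19 are named, with no order, in the submitters' processing notes. For the annotation, strand setting and filters the sources used here give nothing. The deposited expression values are gene counts scaled per library by the authors (a normalized signal), and 100% of them gave whole reads within 0.01 of a read. From the authors' deposited comparison the log2 fold change, its standard error and the adjusted p-value were used, and their test score was not.

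Because the values were normalized, log2(normalized count + 1) was fitted with limma 3.58.1 (R 4.3.3, trended variance) for the 15354 genes whose mean reached 10. Fold changes are on that scale, which understates those of low genes. P-values were adjusted by Benjamini and Hochberg over all genes tested, with a threshold of 0.05. The scripts were tested on simulated data. Alternatives were pseudocounts of 0.5 and 5, no filter, a mean of at least 50, quantile normalization, edgeR 4.0.16 and DESeq2 1.42.0 on the recovered reads, a replicate block, removal of a trend on length and GC content, and leaving out each library. The authors' deposited values were counted as a further alternative. EdgeR called 2969 genes, 2851 of them shared with the 2920 of limma, and an unadjusted p under 0.05 was found for 5084.

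The 10 genes and the pathway lists were chosen with earlier results of these data known. Named are the 10 genes, BRD8, up to 4 called genes per list by adjusted p, and the 3 genes most like PHGDH and SLC7A11. Some genes that this rule names are counted in their lists but not reported here. GENCODE v29 (GRCh38), another build than the data, served for lengths, GC content and overlaps only: 23748 symbols matched directly, 774 through another symbol and 1840 not at all. Sequences are from RefSeq on GRCh38.p14. Libraries of 1 group differed by more than sampling noise (chi-square per degree of freedom 6.63 to 51.9), so each counted once.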

Additional observations from a re-analysis of the deposited data

How the results depend on the processing

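Among the 10 pathway genes the count called lower was 4 with limma and also with other pseudocounts, filters and quantile normalization, with edgeR, with DESeq2 and with the authors' deposited adjusted p. It was 6 with the replicate block and with the length and GC trend removed, and 3 to 6 with 1 library left out, the highest without control library 2. None of the 10 was called higher under any of these. With the length and GC trend removed, genes called rose from 2920 to 4996 (2704 lower, against 1371), and neighbouring genes called from 23 to 39 (22 lower, against 10). With 1 library left out, all calls ranged from 1360 (without control library 3) to 5229 (without control library 2), higher calls from 832 to 2445 and lower calls from 528 to 2784. Neighbouring genes called then ranged from 12 to 38, with 6 to 21 higher and 6 to 17 lower. The difference between SHMT2 and SHMT1 stayed between -0.19 and -0.04. Among the other named genes, whose set was widened after seeing the data, leaving out 1 library ended a call in 49 cases and added one in 2, and other settings ended 11 and added 10, with no called value changing sign. The cause of these shifts was not tested. Whether same-numbered libraries pair was not settled: their deviations correlated at -0.08, 0.34 and 0.16. Control libraries 2 and 3 correlated best with the BRD8 library of their own number, but control library 1 with BRD8 library 3 (0.33). The replicate block called 3901 genes and 30 neighbouring genes, and with it MTHFD2 (-0.23), ALDH1L2 (-0.45) and SLC7A11-AS1 (-1.32) were called lower, which they were not without it. With 3 libraries a group and 1 reagent a treatment, small differences such as those of PSPH, SHMT1, SHMT2 and CTH were not resolved beyond their intervals.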
